A study of Homo sapiens with 6 samples.

Results

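The genes described here sense DNA in the cytosol or belong to the PYHIN family, and 8 were listed by symbol: AIM2, IFI16, MNDA, PYHIN1, CGAS, STING1, ZBP1 and TREX1. Of these, 7 had a probe set with their symbol, out of 17687 genes with a named probe set, the exception being TREX1. The list was set by gene name, with earlier results of these arrays known. AIM2 varied the most of the 7, being lower with the let-7d-3p mimic and higher with the let-7e-5p and miR-146a-5p mimics, while STING1 stayed close to its control level with all 5 mimics.

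The cells were THP-1, an established human monocytic leukaemia line that the phorbol ester PMA turns into macrophage-like cells. All cultures had 100 ng/ml PMA for 2 days, followed by 24 h with a lipid reagent (lipofectamine RNAiMAX) and 1 synthetic RNA. The RNA was a mimic of miR-146a-5p, let-7e-5p, miR-130a-3p, miR-151a-3p or let-7d-3p, or the negative control, mimic NC. The study chose these miRNAs from the plasma of patients with allergic conjunctival disease and asked what they do to gene expression. There was 1 Clariom S array per mimic and 1 for mimic NC, which makes 6 arrays without replication, and differences are therefore given with no test and no error. All 5 comparisons also share the mimic NC array, so an error in that array enters each of them. The groups come from the sample titles, since the treatment text of every sample names the let-7a-5p mimic, and the meaning of the "2" in the title of the control is not given. A single leukaemia line stands here for macrophages.

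DNA in the cytosol is a sign of infection or of damaged nuclei and mitochondria. The enzyme cGAS binds it and makes the cyclic dinucleotide cGAMP, which activates STING on the endoplasmic reticulum and so the kinase TBK1, the transcription factor IRF3 and type I interferon. PYHIN proteins combine a pyrin domain with a HIN domain that binds DNA, and AIM2, the best known of them, assembles with the adaptor ASC and caspase-1 into an inflammasome that releases interleukin-1β and interleukin-18 and opens gasdermin D pores. Several of these sensors are themselves induced by interferon in macrophages.

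The miRNAs shown here differ in their seeds, the bases 2 to 8 through which a miRNA chooses most of its mRNAs. The mature sequences are shown because the mimics let-7d-3p and let-7e-5p, whose names are close, gave opposite differences in AIM2. They are from RefSeq (GRCh38.p14), written 5′ to 3′ with the seed in capitals, and 3 of the 5 miRNAs matched.
let-7d-3p: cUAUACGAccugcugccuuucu
let-7e-5p: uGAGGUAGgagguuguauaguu
miR-146a-5p: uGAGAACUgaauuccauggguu
The let-7d-3p miRNA (chr9:94178895-94178916, plus strand) comes from the 3′ arm of its hairpin, whereas let-7e-5p (chr19:51692793-51692814, plus strand) comes from the 5′ arm and carries the seed of the let-7 family. The seed of miR-146a-5p (chr5:160485372-160485393, plus strand) differs from both. The mimics miR-130a-3p and miR-151a-3p are given by name only.

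Signals are log2 values per probe set. The median signal of the arrays was between 6.92 and 6.95, and the number of arrays limits the precision. A signal of 5.39 served as background: 95% of the values of 349 olfactory receptor probe sets lay under it, and these receptors are mostly silent outside the nose. The labels call the cells lymphocyte-like, but all 12 monocyte and macrophage markers were above background on at least 3 arrays, 11 or 12 on each array, with CSF1R at 15.39 to 15.66 and CD68 at 15.25 to 15.48. Of 8 T and NK cell markers, CD3D, CD2, CD8A and KLRD1 were under background on all arrays and CD3G was above it on 1, while CD3E (5.80 to 6.09), NCAM1 (7.49 to 8.02) and GNLY (9.23 to 9.98) were above it on all 6. Of 4 B and plasma cell markers measured, MS4A1 was under background on all arrays, MZB1 was above it on 2, and CD79A (6.68 to 7.68) and CD79B (5.87 to 6.84) were above it on all 6. The median log2 ratio of the macrophage markers to mimic NC was between -0.015 and 0.07 in the 5 comparisons. Single markers ranged from -0.30 to 0.65, the highest being CD14 with miR-151a-3p (11.54, against 10.89 with mimic NC). That of 6 housekeeping genes was between -0.08 and 0.085.

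A member was counted when it was at least 1.5-fold (0.585 log2) above or below mimic NC and its brighter array was above background. This fold was crossed by a few percent of all genes in each direction, and the members are read against those shares. In every comparison 6 of the 7 members were above background on at least 1 array of the pair. With let-7e-5p, 3 members were higher (AIM2, MNDA and CGAS), against 2.76% of 11811 genes, and 0 were lower, against 2.34%. The miR-146a-5p mimic had 2 members higher (AIM2 and MNDA), against 3.34% of 11780 genes, and 0 lower, against 2.52%. With let-7d-3p, 0 were higher, against 3.45% of 11936 genes, and 1 was lower (AIM2), against 3.53%. With miR-151a-3p, 0 were higher, against 4.2% of 11809 genes, and 3 were lower (AIM2, IFI16 and PYHIN1), against 3.99%. With miR-130a-3p no member passed the fold, against 3.74% of 11831 genes higher and 3.2% lower. AIM2 and MNDA thus appear under both let-7e-5p and miR-146a-5p, and AIM2 under 4 of the 5 mimics. With 6 genes a share of members is coarse, and no chance level is given for these counts.

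**Figure D1:**
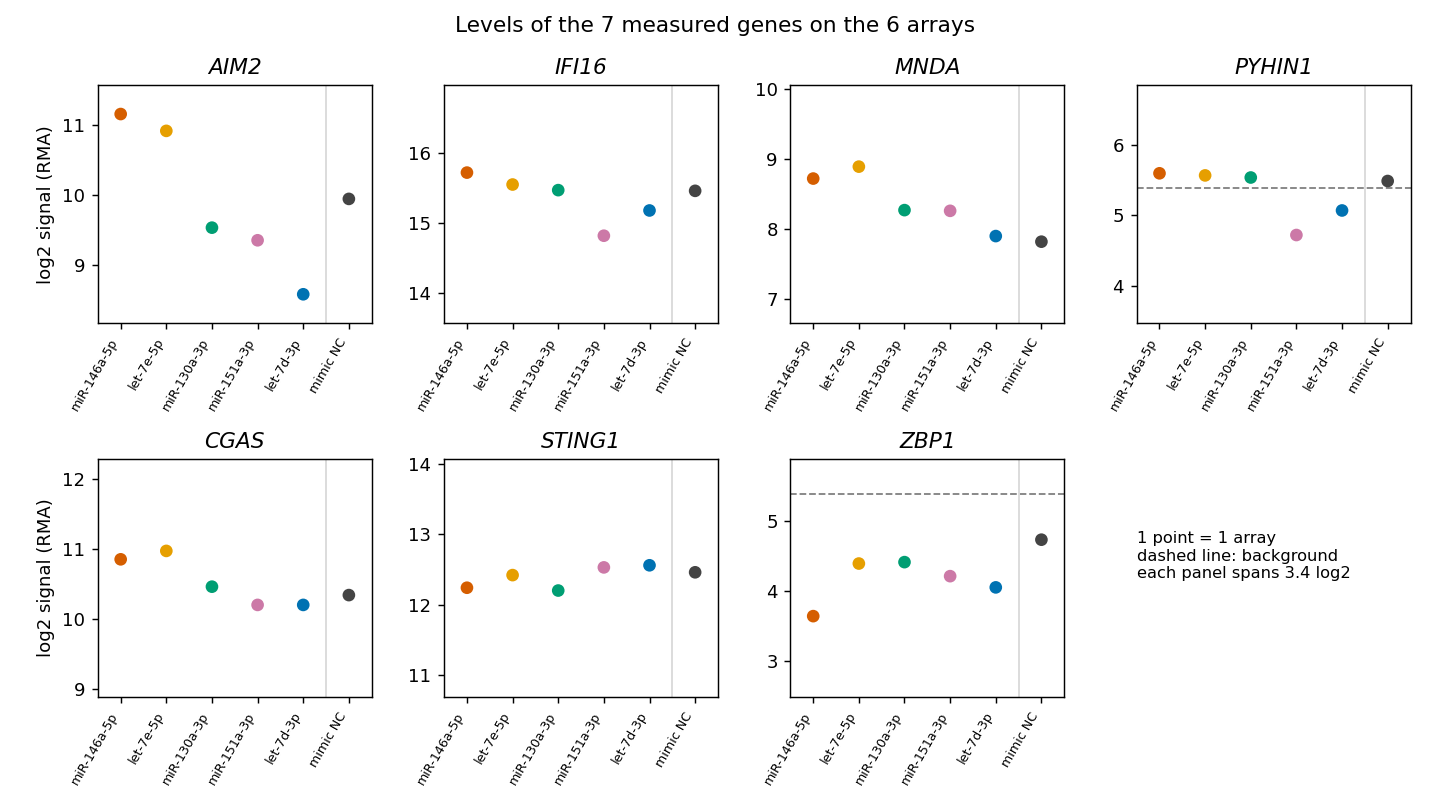
Log2 signal of each measured gene on the 6 arrays, 1 point per array, the 5 mimics on the left of the grey line and mimic NC on its right, with the background of 5.39 as a dashed line where it falls in the panel. All panels span the same number of log2 units, so that AIM2, from 8.58 to 11.15, can be set by eye against STING1, from 12.20 to 12.56.

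AIM2 binds double-stranded DNA in the cytosol and starts the inflammasome. Its log2 signal was 11.15 with miR-146a-5p, 10.91 with let-7e-5p, 9.53 with miR-130a-3p, 9.35 with miR-151a-3p and 8.58 with let-7d-3p, against 9.94 with mimic NC. The let-7e-5p and miR-146a-5p arrays stand above the control and the other 3 mimic arrays below it, with let-7d-3p lowest. AIM2 was 2.31-fold higher than with mimic NC after the miR-146a-5p mimic (log2 ratio 1.21) and 1.96-fold higher after let-7e-5p (0.97). These ratios were the 17th highest of 11780 ratios and the 36th highest of 11811. After let-7d-3p it was 2.57-fold lower (-1.36), the 7th lowest of 11936 ratios. The differences with miR-151a-3p (1.51-fold lower, -0.59) and miR-130a-3p (1.33-fold lower, -0.41) were smaller, and the miR-151a-3p value lies at the edge of the 1.5-fold line.

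The order of AIM2 levels, high to low, was miR-146a-5p, let-7e-5p, mimic NC, miR-130a-3p, miR-151a-3p and let-7d-3p. Between miR-146a-5p and let-7e-5p the gap was 0.24 log2, and between miR-130a-3p and miR-151a-3p it was 0.18. With mimic NC as the other array, the median gene differed by 0.16 to 0.18, so neighbours this close have no settled order. The miR-146a-5p array exceeded the let-7d-3p array by 2.57 log2, a 5.94-fold difference that does not involve mimic NC. Of the 12275 genes above background on at least 1 array, only 1 had a wider range, CXCL11 (3.30), a chemokine named here after its values were seen. The median range was 0.50 and the 95th percentile was 1.13. Since RNA came from whole cultures, less AIM2 mRNA per cell and fewer cells that hold it cannot be told apart.

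IFI16 is a nuclear and cytosolic PYHIN sensor known for viral DNA and for acting with cGAS and STING. Its signal was 15.72 with miR-146a-5p, 15.55 with let-7e-5p, 15.47 with miR-130a-3p, 14.82 with miR-151a-3p and 15.18 with let-7d-3p, against 15.46 with mimic NC. Apart from the low miR-151a-3p array, the levels lay between 15.18 and 15.72, with miR-146a-5p highest as for AIM2. Relative to mimic NC, IFI16 was 1.56-fold lower with miR-151a-3p (-0.64). The ratios of the other mimics were between -0.28 and 0.26. Its range of 0.90 was wider than that of 86.9% of genes.

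MNDA, the myeloid nuclear differentiation antigen, is a PYHIN protein of granulocytes and monocytes. It had signals of 8.72 with miR-146a-5p, 8.89 with let-7e-5p, 8.27 with miR-130a-3p, 8.26 with miR-151a-3p and 7.90 with let-7d-3p, against 7.82 with mimic NC. The same arrays as for AIM2 were the highest, in the other order, but here mimic NC was the lowest of all 6. MNDA was 2.10-fold higher with let-7e-5p (1.07, the 22nd highest ratio) and 1.87-fold higher with miR-146a-5p (0.90, the 77th highest). Its ratio was 0.45 with miR-130a-3p, 0.44 with miR-151a-3p and 0.08 with let-7d-3p. The control array was the lowest of the 6 for 13.1% of genes. Against the median of the other 4 mimics, the ratios of let-7e-5p and miR-146a-5p were 0.62 and 0.455. Those of miR-130a-3p (-0.22), miR-151a-3p (-0.235) and let-7d-3p (-0.595) had the other sign. Of the 2 ratios past 1.5-fold against mimic NC, the one of let-7e-5p also passed it against the other mimics, and let-7d-3p passed it only in that second comparison, where it was lower.

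PYHIN1, also called IFIX, is an interferon-inducible member of the family that is known mainly from lymphocytes. Its signal was 5.60 with miR-146a-5p, 5.57 with let-7e-5p, 5.54 with miR-130a-3p, 4.72 with miR-151a-3p and 5.07 with let-7d-3p, against 5.49 with mimic NC. On 4 arrays it was just above background, and with let-7d-3p and miR-151a-3p it was under it. The measured ratio for miR-151a-3p was -0.77, but counted from background PYHIN1 was at least 1.07-fold lower there, and likewise at least 1.07-fold lower with let-7d-3p. Its count as lower with miR-151a-3p thus rests on a signal that background does not separate. With both arrays required to be above background, 2 members were lower with miR-151a-3p. The B cell markers CD79A, CD79B and MZB1 (4.29 to 5.85) were also lowest with miR-151a-3p, where their median ratio was -0.94. The T and NK cell markers mostly went the other way there. Of 4 above background on at least 1 array, 3 were higher and 1 was lower, with a median of 0.22. The part of either kind of marker in the PYHIN1 value was not tested.

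**Figure D2:**
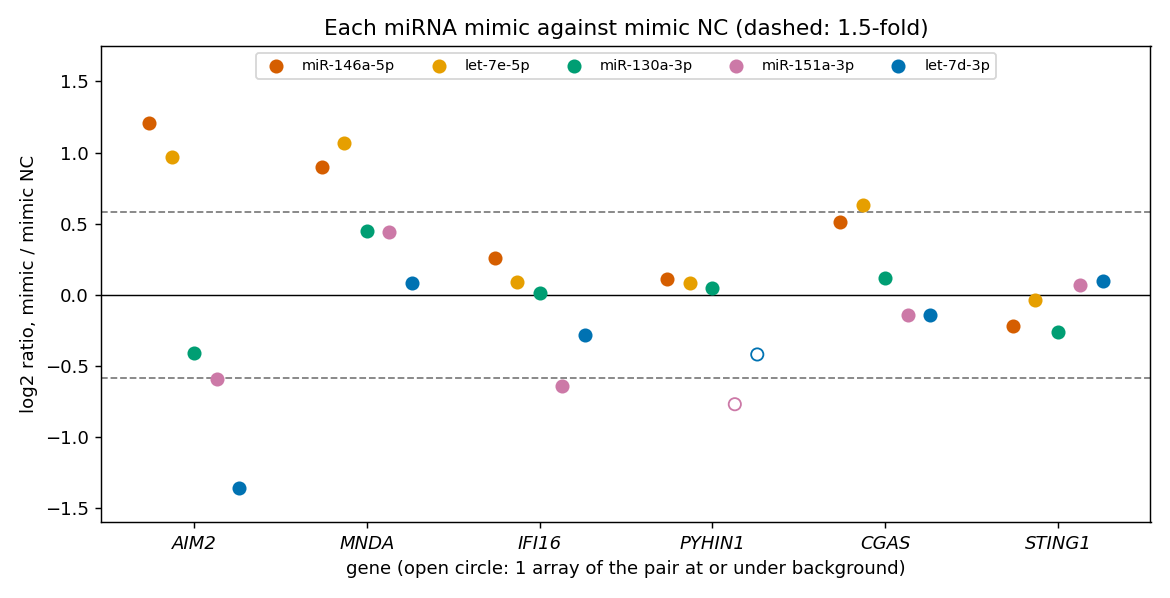
Log2 ratio of each mimic array to the mimic NC array for the 6 members above background, 1 point per mimic, with dashed lines at 1.5-fold and open circles where 1 array of the pair was at or under background. AIM2 spans -1.36 to 1.21, MNDA lies at or above 0.08 with every mimic, and STING1 stays between -0.26 and 0.10.

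The 4 PYHIN genes lie in 1 cluster on chromosome 1. Promoter windows of 300 bases (250 before and 50 after the start of a transcript, RefSeq, GRCh38.p14) were at hand for AIM2, IFI16, MNDA, PYHIN1 and TREX1. They were searched on both strands for the core of the interferon-stimulated response element (GAAA, any 2 bases, GAAA) and for the gamma-activated site TTCNNNGAA. The response element core was found once each in AIM2 and MNDA, and not in the windows of IFI16, PYHIN1 and TREX1. No window of a member held TTCNNNGAA. Of all 35116 windows, 3.57% held the response element core and 7.66% the gamma-activated site. Counted by gene, 4.38% of 27305 genes had the core in at least 1 window and 9.38% the site. Of 17 genes of the interferon-induced list that had a window, 12 had the core and 6 the site. The 250 bases before the start of AIM2 (chr1:159076767-159077016, minus strand) and MNDA (chr1:158831101-158831350, plus strand) are shown to give the place of the match, which is in capitals.
AIM2: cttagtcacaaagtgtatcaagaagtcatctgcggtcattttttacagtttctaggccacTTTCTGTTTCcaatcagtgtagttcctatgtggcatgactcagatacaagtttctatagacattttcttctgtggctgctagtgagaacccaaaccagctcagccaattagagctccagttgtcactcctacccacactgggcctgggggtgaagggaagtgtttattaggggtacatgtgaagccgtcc
MNDA: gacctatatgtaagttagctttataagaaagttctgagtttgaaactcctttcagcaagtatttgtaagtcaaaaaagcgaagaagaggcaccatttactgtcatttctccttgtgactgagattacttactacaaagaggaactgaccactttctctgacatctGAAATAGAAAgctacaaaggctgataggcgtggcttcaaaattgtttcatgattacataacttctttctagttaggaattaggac
In AIM2 the match begins 190 bases before the start and is on the opposite strand, where it reads GAAACAGAAA. In MNDA it begins 85 bases before the start and reads GAAATAGAAA on the strand of the gene. A match is a run of letters and was not tested for binding.

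CGAS encodes the enzyme that makes cGAMP on DNA. Its signal was 10.85 with miR-146a-5p, 10.97 with let-7e-5p, 10.46 with miR-130a-3p, 10.20 with miR-151a-3p and 10.20 with let-7d-3p, against 10.34 with mimic NC. The let-7e-5p and miR-146a-5p arrays were again the highest, and the let-7d-3p and miR-151a-3p arrays were equal and lowest. CGAS was 1.55-fold higher with let-7e-5p than with mimic NC (0.63, the 243rd highest ratio) and 1.42-fold higher with miR-146a-5p (0.51). The remaining ratios were between -0.14 and 0.12. Its range of 0.77 was wider than that of 79.1% of genes.

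STING1 encodes the receptor of cGAMP. Its signal was 12.24 with miR-146a-5p, 12.42 with let-7e-5p, 12.20 with miR-130a-3p, 12.53 with miR-151a-3p and 12.56 with let-7d-3p, against 12.46 with mimic NC. The array with the lowest AIM2, let-7d-3p, had the highest STING1, and the whole span was 0.36 log2, wider than that of 28.8% of genes. No ratio to mimic NC reached 1.5-fold, and the values lay between -0.26 with miR-130a-3p and 0.10 with let-7d-3p. Without replicates, a change of this size can be neither shown nor set aside.

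ZBP1, a sensor of left-handed Z-form DNA and RNA that can start necroptosis, had signals of 3.64 with miR-146a-5p, 4.39 with let-7e-5p, 4.41 with miR-130a-3p, 4.21 with miR-151a-3p and 4.05 with let-7d-3p, against 4.73 with mimic NC. All 6 values were under background, so no fold is given, and their order has no meaning. At this sensitivity ZBP1 was not detectable in any of the cultures. TREX1, which encodes an exonuclease that removes DNA from the cytosol, had a promoter window but no signal to analyse here.

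The profile of AIM2 over the 6 arrays, centred on its mean, was compared with those of 10870 genes above background on all arrays by the root mean square of the differences. The nearest were STAP1, a signalling adaptor (0.141 log2), HESX1, a homeobox transcription factor (0.202), TNFSF10, which encodes the death ligand TRAIL (0.205), IFIT2, an antiviral protein that binds RNA (0.214), and GBP1, a guanylate-binding GTPase (0.216). STAP1 had 10.87 with miR-146a-5p, 10.72 with let-7e-5p, 9.48 with miR-130a-3p, 9.48 with miR-151a-3p and 8.65 with let-7d-3p, against 9.86 with mimic NC. Its highest, lowest and control arrays are the same as those of AIM2. For MNDA the nearest were TWF1, which binds actin monomers (0.0769), BAG1, a co-chaperone of Hsp70 (0.134), and TRAF1, an adaptor of TNF receptors (0.138). TWF1 had 12.12 with miR-146a-5p, 12.29 with let-7e-5p, 11.54 with miR-130a-3p, 11.74 with miR-151a-3p and 11.37 with let-7d-3p, against 11.13 with mimic NC. As for MNDA, its highest level was with let-7e-5p and its lowest with mimic NC. These genes were picked as nearest over the same 6 arrays, so the shared high and low arrays follow from the choice. With 6 arrays, likeness is given as a description only.

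**Figure D3:**
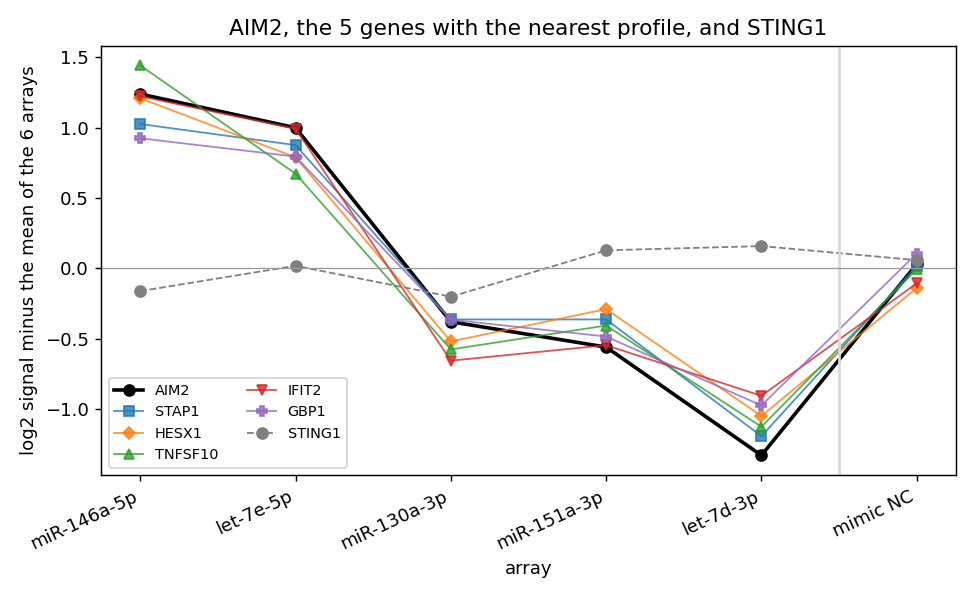
Log2 signal minus the mean of the 6 arrays for AIM2 (black), the 5 genes with the nearest profile and STING1 (grey, dashed), with the mimics on the left and mimic NC on the right. The 5 nearest genes share the high let-7e-5p and miR-146a-5p arrays and the low let-7d-3p array of AIM2, which follows from how they were chosen. STING1, which was not chosen by its profile, does not share them.

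Because several sensors are interferon-induced, a list of 24 such genes was set beside AIM2, of which 22 were measured, all above background. With let-7d-3p all 22 were lower than with mimic NC, with a median log2 ratio of -0.71. With let-7e-5p 21 were higher and 1 was lower (median 0.415), and with miR-146a-5p all 22 were higher (0.605). With miR-130a-3p 21 were lower and 1 was equal (-0.37), and with miR-151a-3p all 22 were lower (-0.415). Over all genes the median ratio was between -0.02 and 0.03. Ordered by these medians, with mimic NC at 0, the arrays have the same order as by AIM2, and the AIM2 ratio was farther from 0 than the median in each comparison. By median signal in place of median ratio, miR-151a-3p (13.015) came just before miR-130a-3p (13.005). The sign of each median rests on the shared mimic NC array. IFIT2 was at 13.47 with miR-146a-5p, 13.24 with let-7e-5p, 11.59 with miR-130a-3p, 11.70 with miR-151a-3p and 11.34 with let-7d-3p, against 12.14 with mimic NC. CXCL10, a chemokine for T cells, had its highest mimic level with let-7e-5p (15.54) and its lowest with let-7d-3p (13.03), against 13.59 with mimic NC. OASL ranged from 11.40 with let-7d-3p to 13.35 with miR-146a-5p, against 12.55 with mimic NC, and MX1 from 15.15 to 16.20 with the same mimics, against 15.63. In each of these 4 genes the let-7e-5p and miR-146a-5p arrays lay above mimic NC and the other 3 mimic arrays below it, as in AIM2. The log2 ratio of miR-130a-3p to mimic NC was -0.02 in MX1, 0.01 in IFI16 and 0.12 in CGAS. The median gene differed by 0.18 in that comparison, so the side of mimic NC is not settled for these 3 genes. STING1 had its 2 lowest levels with miR-130a-3p and miR-146a-5p. The gene for the interferon β ligand itself, IFNB1, and those of IFNA1, IFNL1 and IFNL2 were under background on all arrays.

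The other genes of the pathway form a list of 81, of which 74 were measured and 62 were above background on at least 1 array. Their median log2 ratios were near 0, at 0.105 with miR-146a-5p, 0.045 with let-7e-5p, -0.01 with miR-130a-3p, 0.01 with miR-151a-3p and -0.035 with let-7d-3p. The miR-146a-5p mimic had 7 of the 62 past 1.5-fold higher, beside 3.34% of all genes, and 0 lower. The miR-151a-3p mimic had 3 higher (4.2% of all genes), let-7e-5p had 2 (2.76%) and miR-130a-3p had 1 (3.74%), each with 0 lower. The let-7d-3p mimic had 1 higher (3.45%) and 2 lower (3.53%). Of 62 genes, the counts of these other 4 mimics are near the shares of all genes or under them.

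The inflammasome list was mixed and not limited to steps after AIM2. Beside PYCARD, CASP1, IL1B and GSDMD it also held NLRP3, CASP4, CASP5 and CARD16. Of its genes, 10 of 13 measured were above background. Their median ratio was 0.305 with miR-146a-5p (7 higher, 3 lower), 0.01 with let-7e-5p (5 and 5) and -0.06 with miR-151a-3p (4 and 6). With let-7d-3p it was -0.17 (3 and 7), and with miR-130a-3p -0.195 (2 and 8). As a group these genes therefore did not have the array order of AIM2. Against the median of the other 4 mimics the let-7d-3p value was -0.06. CASP1, the protease of the inflammasome, was at 11.19 with miR-146a-5p, 10.65 with let-7e-5p, 10.22 with miR-130a-3p, 10.45 with miR-151a-3p and 9.88 with let-7d-3p, against 10.57 with mimic NC. It was thus 1.54-fold higher with miR-146a-5p and 1.61-fold lower with let-7d-3p, the highest and lowest arrays of AIM2. GSDMD, which encodes the pore protein gasdermin D, had its highest level with miR-146a-5p (8.95) and its lowest with let-7d-3p (7.96), against 8.26 with mimic NC, and was 1.61-fold higher with miR-146a-5p.

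The list for ZBP1 and necroptosis had 5 measured genes, RIPK3, MLKL, CASP8, FADD and ADAR, and was not limited to genes that promote necroptosis. All 5 were above background and all 5 were higher with miR-146a-5p, with a median of 0.29. The median was 0.11 with let-7e-5p (4 of 5 higher), 0.02 with let-7d-3p (3), -0.03 with miR-151a-3p (2) and -0.09 with miR-130a-3p (2). MLKL, which ruptures the plasma membrane, was at 10.33 with miR-146a-5p, 9.80 with let-7e-5p, 9.56 with miR-130a-3p, 9.45 with miR-151a-3p and 9.24 with let-7d-3p, against 9.69 with mimic NC. It was 1.56-fold higher with miR-146a-5p. ZBP1 itself was under background.

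The list of adaptors, kinases and transcription factors after STING1 also held MAVS, and so was not limited to steps downstream of STING1. Of its 9 measured genes, 8 were above background, with medians between -0.155 and 0.08. The exception was IRF3, named after its value was seen, at 4.20 to 5.25. A signal under background does not show that IRF3 mRNA was absent from the cells. IRF7, the interferon-inducible transcription factor of the interferon α genes, was at 7.23 with miR-146a-5p, 6.96 with let-7e-5p, 6.84 with miR-130a-3p, 6.10 with miR-151a-3p and 6.10 with let-7d-3p, against 6.30 with mimic NC. It was 1.91-fold higher with miR-146a-5p and 1.58-fold higher with let-7e-5p.

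Among regulators of CGAS and STING1, all 15 measured were above background. BANF1 encodes the barrier-to-autointegration factor, which coats nuclear DNA and keeps cGAS off it. It was at 14.03 with miR-146a-5p, 14.00 with let-7e-5p, 14.17 with miR-130a-3p, 14.16 with miR-151a-3p and 13.81 with let-7d-3p, against 13.21 with mimic NC, and so 1.52-fold to 1.95-fold higher with every mimic. The 5 mimic arrays differed by 0.36 log2 among themselves, and all 5 ratios rest on the 1 control array. A low control array and a difference shared by the mimics cannot be told apart. Of 12275 genes, 21 were past 1.5-fold higher with all 5 mimics. USP18, which removes ISG15 and dampens interferon signalling and is also in the interferon-induced list, was highest with miR-146a-5p (13.94) and lowest with let-7d-3p (12.75), against 13.55 with mimic NC. It was 1.74-fold lower with let-7d-3p.

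Of the other DNA sensors, 13 of 14 measured were above background, with medians of 0.00 with miR-146a-5p, 0.05 with let-7e-5p, 0.20 with miR-130a-3p, 0.00 with miR-151a-3p and 0.03 with let-7d-3p. Against the median of the other 4 mimics, the miR-130a-3p value was 0.07. The helicase DHX9 lay between 11.41 with miR-146a-5p and 11.76 with miR-151a-3p, against 11.14 with mimic NC, and was 1.54-fold higher with miR-151a-3p. DDX41, the helicase with the widest range of these, lay between 11.88 with miR-151a-3p and 12.55 with let-7d-3p, against 12.34 with mimic NC. It was 1.38-fold lower with miR-151a-3p, where DHX9 was highest.

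Of the nucleases and the enzymes that clear self DNA or cGAMP, 9 of 11 measured were above background. APOBEC3A, a cytidine deaminase that edits foreign DNA, lay between 5.75 with miR-151a-3p and 6.86 with miR-146a-5p, against 6.10 with mimic NC. DNASE1, which digests DNA outside cells, lay between 5.86 with let-7d-3p and 6.80 with miR-146a-5p, against 6.07 with mimic NC. With miR-146a-5p APOBEC3A was 1.69-fold and DNASE1 1.66-fold higher than with mimic NC. Both genes were near background. Of the olfactory receptor values 99% lay under 6.82, a level that DNASE1 passed on no array and APOBEC3A only with miR-146a-5p. Of 2 transporters above background, SLC19A1, the folate carrier that also brings cyclic dinucleotides into monocytes, was at 9.98 with miR-151a-3p and between 8.47 and 8.97 with the other 4 mimics, against 8.69 with mimic NC. With miR-151a-3p it was 2.45-fold higher than with mimic NC.

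**Figure D4:**
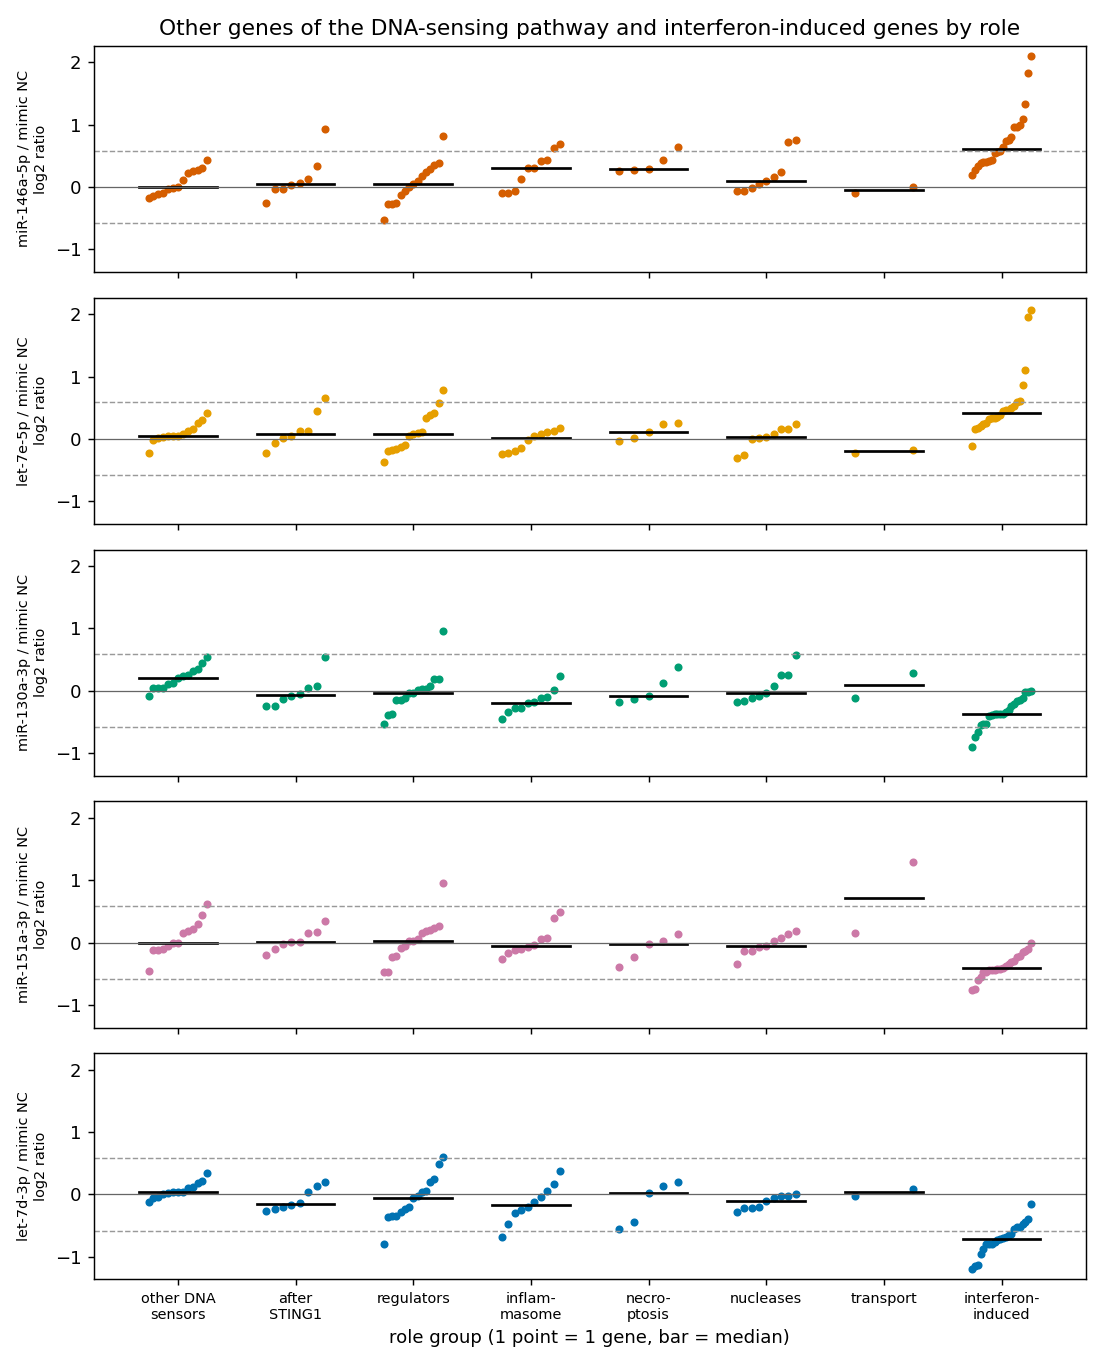
Log2 ratio of each mimic array to the mimic NC array for pathway genes above background by role, with interferon-induced genes on the right, 1 row per mimic, 1 point per gene, a bar at the median and dashed lines at 1.5-fold. Medians of the pathway groups lie between -0.20 (the 2 transporters with let-7e-5p) and 0.305 (the inflammasome with miR-146a-5p), apart from the 2 transporters with miR-151a-3p at 0.72, while the interferon-induced medians run from -0.71 with let-7d-3p to 0.605 with miR-146a-5p.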

How the data were processed

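Total RNA of 6 THP-1 cultures was hybridised to Clariom S arrays. The values deposited by the authors are log2 signals per probe set, and the processing notes of the submitters name RMA and version 4.0 of the Transcriptome Analysis Console. RMA corrects background, makes the signal distributions of arrays alike and sums up the probes of a set, so an overall shift of signal is lost. Its settings, and the group of arrays it was run on, are not given in the sources used. RNA was extracted with Trizol per the labels, and with RNeasy per the methods of the study.

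The table holds 21448 probe sets, of which 17709 carry 1 gene symbol in the platform annotation, and probe sets of a gene were averaged (17687 genes). A ratio is the difference of 2 log2 signals. Folds whose dimmer array was at or under background are counted from background and given as "at least". Counts used 1.5-fold. With 1 array per group no test was made. Members and lists were chosen with earlier results of these data known.

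The text names all members, pathway genes past 1.5-fold with any mimic or with the widest range of their role group, the 5 nearest profiles to AIM2 and the 3 nearest to other members with a range over 1 log2 (none is given for ZBP1, which was under background), and IFIT2, CXCL10, MX1 and OASL. A further gene set out for naming is not reported here. Lists for other cell types and for scale were markers of monocytes and macrophages, of T and NK cells, of B and plasma cells, of epithelial cells and fibroblasts, and housekeeping genes. Of the epithelial and fibroblast markers, 5 of 7 were under background.

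Ratios, counts, list medians and the arrays above background were also computed with the other 4 mimics (their median) as comparator, median centring, repeated quantile normalization, removal of a lowess trend (span 0.3), a pseudocount of 32, folds of 2 and 3, filters on background, and the mean over a list. A comparison of PYHIN protein sequences was set out but not run. Python 3.11.15, pandas 2.3.3, numpy 2.4.6 and statsmodels 0.14.6 were used, and the scripts were tested on simulated data.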

Additional observations from a re-analysis of the deposited data

How the results depend on the processing

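No paired analysis was possible because there was 1 array per group. For the same reason no array could be left out. Counts of members under an alternative were within 1.5 times the main count in 69 cases and not in 11. Most of the 69 were counts of 0 that stayed 0, and a higher fold or a stricter filter cannot raise a 0. The 69 cases are therefore no measure of how stable the other counts were. With the median of the other 4 mimics as comparator, 2 members were lower with let-7d-3p, 1 was higher with miR-146a-5p and 1 was lower with miR-130a-3p, where the AIM2 ratio was -0.60 in place of -0.41. With a pseudocount of 32 the AIM2 ratio for miR-151a-3p was -0.57 in place of -0.59, just inside 1.5-fold, and 1 member was lower there. At 2-fold, 1 member was higher with let-7e-5p, 1 was higher with miR-146a-5p and 0 were lower with miR-151a-3p, and at 3-fold all these counts and that of let-7d-3p were 0. The direction of AIM2 was the same with every mimic under all of these. Member ratios shifted by at most 0.675 with the other comparator, 0.371 with the pseudocount (PYHIN1 with miR-151a-3p, -0.40 in place of -0.77), 0.0767 with quantile normalization, 0.06 with the lowess trend removed and 0.03 with median centring. With centring the IFI16 ratio for miR-130a-3p was -0.02 in place of 0.01. With the other comparator the small ratios of CGAS for miR-130a-3p (-0.065) and STING1 for let-7e-5p (0.035) changed sign, as did those of MNDA given above. Of the list medians under an alternative, 301 moved by at most 0.1 and 14 by more. Among these, with the other comparator, the interferon-induced median was 0.943 for miR-146a-5p and 0.805 for let-7e-5p, and the necroptosis median was -0.135 for let-7d-3p and -0.225 for miR-151a-3p. With no filter on background, the transporter median for miR-151a-3p was 0.15 in place of 0.72. Likeness of profiles, ranges and motif searches had no alternative. With background at the 99th percentile (6.82), PYHIN1 was above it on 0 arrays. The cause of these changes was not tested.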

Other observations

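The genes next to the PYHIN genes on chromosome 1 were not detected in these cultures. Of 9 protein-coding neighbours 8 were measured, among them CADM3, ACKR1 and FCER1A, and all had signals between 2.21 and 4.75, under the background of 5.39 on every array. Of the 9, 5 are olfactory receptors, a family that also set that background, so their low signals are no separate evidence. The signals of AIM2, MNDA and IFI16 were therefore not shared by the measured genes beside them.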
